A study of Mus musculus with 6 samples.

Results

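The hippocampus receives serotonin, noradrenaline, dopamine, acetylcholine and histamine from neurons whose cell bodies lie elsewhere in the brain, and it makes opioid peptides, adenosine and endocannabinoids locally. The receptor genes for these 8 kinds of neuromodulator were described here in hippocampal RNA of TonEBP+/- and wild-type mice. Members were all gene symbols of the serotonin (Htr1 to Htr7), dopamine (Drd), adrenergic (Adra, Adrb), muscarinic (Chrm), nicotinic (Chrn), histamine (Hrh), opioid (Opr), adenosine (Adora) and cannabinoid (Cnr) receptor families, which gave 63 of the 24346 symbols in each table. Of the 63, 35 were detected, that is, at 1 FPKM or more in at least 3 of the 6 libraries. Another 19 were low, with a mean of at least 0.1 FPKM over the 6 libraries, and 9 were near 0.

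The tested animals were 12-month-old C57BL/6 mice heterozygous for the gene Nfat5, whose product is the tonicity-responsive transcription factor TonEBP (TonEBP+/-, libraries HET 1 to HET 3). Their wild-type littermates (WT 1 to WT 3), of the same age and strain, had 0 disrupted alleles. Heterozygotes were intercrossed after several generations of back-crossing to C57BL/6J, and the labels do not say how the allele was made. The labels number the samples 1 to 3 within a genotype and say no more about how they were kept apart, so p-values measure the spread between these samples.

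Levels are given in FPKM (fragments per kilobase of transcript, scaled to library depth), a unit read from how the deposited log2 values behave, since no header names it. From the spacing of low values each library held an estimated 8020000 to 12700000 fragments, and at that depth a single fragment on 2 kb of transcript corresponds to 0.0394 to 0.0623 FPKM. Hippocampal markers were present: the dentate granule gene Prox1 averaged 12.4 ± 1.60 FPKM in TonEBP+/- and 13.9 ± 0.740 FPKM in wild type, and the CA1 gene Wfs1 13.2 ± 3.44 FPKM in TonEBP+/- and 11 ± 0.825 FPKM in wild type (SD, n = 3 each). Genes of thalamus and habenula, regions next to the hippocampus, summed to 403, 251 and 228 FPKM over 21 markers in HET 1 to HET 3, against 365, 409 and 376 FPKM in WT 1 to WT 3. Choroid plexus genes ranged more widely, from 100.2 FPKM (HET 2) to 3501 FPKM (HET 3) over 11 markers. Nfat5 itself averaged 8.66 ± 0.567 FPKM in TonEBP+/- and 9.53 ± 1.07 FPKM in wild type (SD, n = 3 each), a value that does not check the genotypes, since the disrupted region of the gene is not named in the labels.

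Neuromodulator receptors tune the excitability and plasticity of hippocampal neurons rather than carry fast excitation. Most of them are G protein-coupled: Gs raises cyclic AMP, Gi/o lowers it and opens potassium channels, and Gq activates phospholipase C. The nicotinic acetylcholine receptors and the receptors built from Htr3a are ion channels assembled from subunits. Among the 63 genes, 45 encode G protein-coupled receptors, 30 of them detected, and 18 encode channel subunits, 5 of them detected. The summed level over all 63 genes was 266 ± 15.1 FPKM in TonEBP+/- and 267 ± 15.8 FPKM in wild type (SD, n = 3 each).

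**Figure D1:**
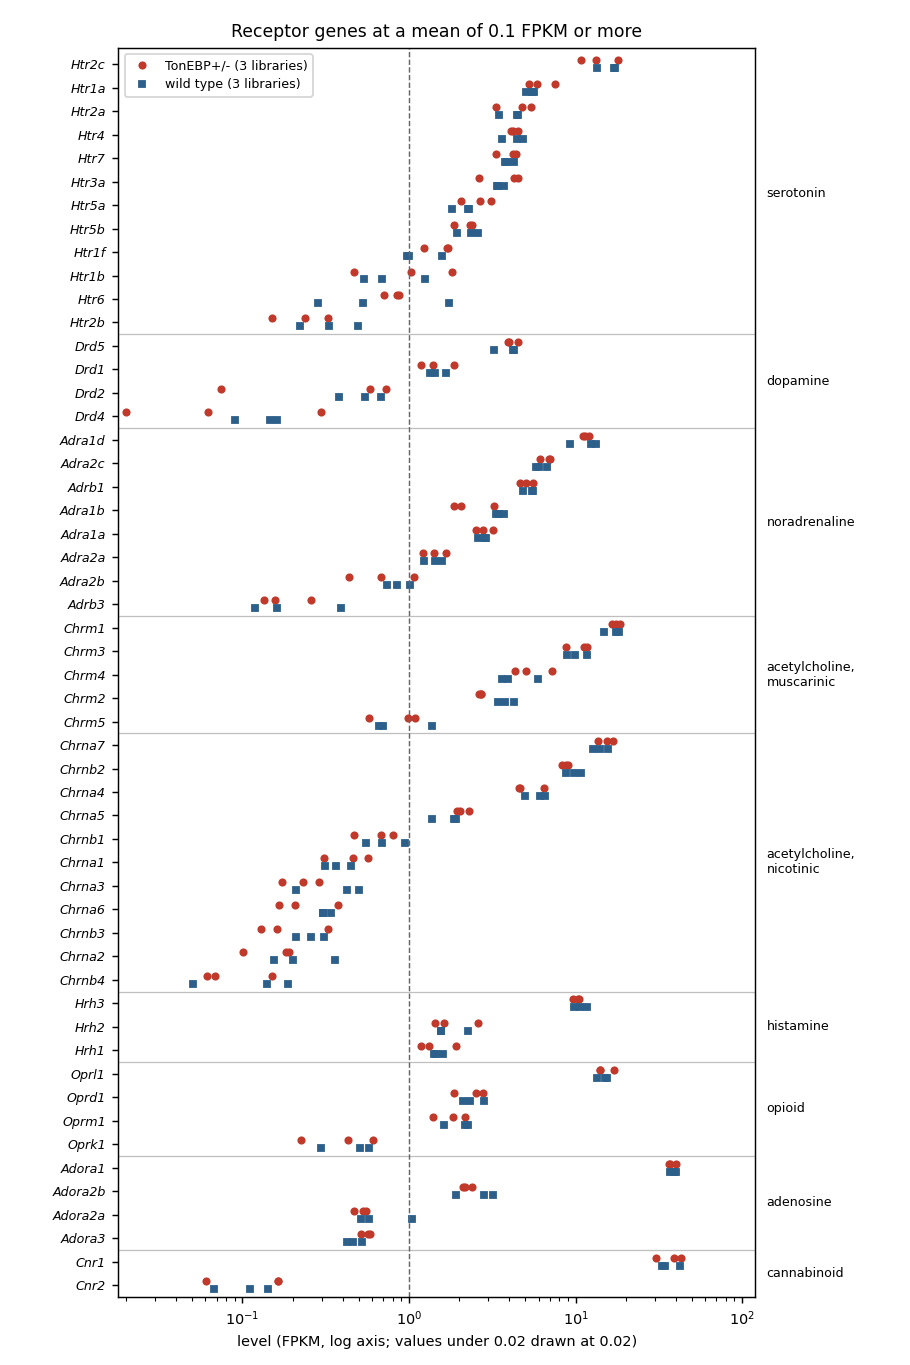
Levels of the receptor genes named in the text at a mean of 0.1 FPKM or more (log axis), grouped by transmitter, with 3 TonEBP+/- libraries (circles) above 3 wild-type libraries (squares) for each gene; the dashed line marks 1 FPKM. Adora1 and Cnr1 lie furthest right in both genotypes, at 30.3 FPKM or more in every library.

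The highest single genes were receptors for the locally made modulators adenosine and endocannabinoids. Adora1 (chromosome 1, 134199215 to 134235457, GRCm38), the Gi/o-coupled adenosine receptor that damps transmitter release, was at 40.3, 36.6 and 37.1 FPKM in HET 1 to HET 3, against 39.9, 37.1 and 39.3 FPKM in WT 1 to WT 3. Cnr1 (chromosome 4, 33923171 to 33948831), the presynaptic cannabinoid receptor, was at 30.3, 43.2 and 39.1 FPKM in TonEBP+/- libraries, against 34.6, 33.1 and 42.7 FPKM in wild-type libraries. Both genotypes overlapped in both genes, and Adora1 varied least of the 35 detected genes, with a coefficient of variation of 4.22% over the 6 libraries, against a median of 15.0% over the 35. Adora1 lay above 85.2% of the 13122 genes tested. It made up 91.5% of the summed level of the 4 adenosine receptor genes, and Cnr1 made up 99.7% of that of the 2 cannabinoid receptor genes. Adora2b, a Gs-coupled adenosine receptor, averaged 2.23 ± 0.15 FPKM in TonEBP+/- and 2.64 ± 0.662 FPKM in wild type (SD, n = 3 each). The other adenosine receptors, Adora2a and Adora3, averaged 0.514 and 0.555 FPKM in TonEBP+/- and 0.708 and 0.468 FPKM in wild type, and Cnr2, known mainly from immune cells, 0.129 FPKM in TonEBP+/- and 0.107 FPKM in wild type. Adora3 shares 20.9% of its annotated exon bases with Tmigd3 on the same strand, so its value is uncertain.

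The next highest single gene by mean was an acetylcholine receptor, although its range overlapped that of Htr2c. The summed level of muscarinic genes was 37.3 ± 4.08 FPKM in TonEBP+/- and 36.2 ± 4.27 FPKM in wild type. Nicotinic subunit genes, counted apart, summed to 33.4 ± 1.63 FPKM in TonEBP+/- and 34.0 ± 2.88 FPKM in wild type (SD, n = 3 each). Each sum lay below that of serotonin receptors, which were kept as 1 class with their channel subunits, so these sums do not rank the transmitters. Chrm1, the Gq-coupled muscarinic receptor of pyramidal neurons, was at 16.7, 18.4 and 17.5 FPKM in HET 1 to HET 3, against 17.4, 14.7 and 18.1 FPKM in WT 1 to WT 3. It was followed by Chrm3, also Gq-coupled, with means of 10.6 ± 1.60 FPKM in TonEBP+/- and 10.2 ± 1.43 FPKM in wild type, and by the Gi/o-coupled Chrm4 with 5.53 ± 1.51 FPKM in TonEBP+/- and 4.49 ± 1.27 FPKM in wild type (SD, n = 3 each). Chrm5 stayed low, with a mean of 0.888 FPKM in TonEBP+/- and 0.910 FPKM in wild type. Among the 16 nicotinic subunit genes only 4 were detected, and these include the subunits of the main brain receptors: Chrna7, which forms channels on its own, and Chrna4 and Chrnb2, which assemble together. Chrna7 was at 13.6, 16.8 and 15.4 FPKM in TonEBP+/- libraries, against 15.6, 12.7 and 14.0 FPKM in wild-type libraries, with overlap. Chrna5, an accessory subunit, lies in a cluster with Chrna3 and Chrnb4 on chromosome 9, in which the 3 genes had unequal levels. Their positions are 54980827 to 55011420 for Chrna5, 55010117 to 55026562 for Chrna3 and 55028154 to 55048953 for Chrnb4 (GRCm38). By these positions the ends of Chrna5 and Chrna3 overlap, and the effect of this on their values was not tested. Chrna5 averaged 1.90 FPKM over the 6 libraries, Chrna3 0.306 FPKM and Chrnb4 0.110 FPKM, and Chrna3 and Chrnb4 are subunits typical of habenula and autonomic ganglia. The muscle subunits Chrna1 and Chrnb1 were low at 0.410 and 0.689 FPKM, and Chrna6, Chrnb3 and Chrna2 were low at 0.283, 0.232 and 0.198 FPKM, whereas Chrnd, Chrne, Chrng, Chrna9 and Chrna10 were near 0.

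Serotonin receptors were the most varied class, with 10 of 14 genes detected and a summed level of 45.4 ± 4.93 FPKM in TonEBP+/- and 45.1 ± 0.270 FPKM in wild type (SD, n = 3 each). Htr2c, a Gq-coupled receptor abundant in choroid plexus as well as in neurons, was the highest of them, at 13.3, 10.8 and 18.0 FPKM in HET 1 to HET 3, against 17.1, 17.3 and 13.5 FPKM in WT 1 to WT 3. The choroid plexus gene Ttr was at 1731, 87.4 and 3338 FPKM in HET 1 to HET 3, against 1017, 2801 and 263 FPKM in WT 1 to WT 3. Within each genotype the library with the least Ttr, HET 2 or WT 3, also had the least Htr2c, and the part of choroid plexus in the Htr2c values was not tested. Htr1a, the Gi/o-coupled receptor that hyperpolarizes pyramidal neurons, averaged 6.23 ± 1.15 FPKM in TonEBP+/- and 5.42 ± 0.309 FPKM in wild type (SD, n = 3 each). Htr2a, Htr4, Htr7 and Htr3a followed, between 3.66 and 4.32 FPKM over the 6 libraries. Htr5a, Htr5b, Htr1f and Htr1b lay between 0.963 and 2.37 FPKM. Htr1b was the least steady detected gene, with 0.466, 1.82 and 1.03 FPKM in HET 1 to HET 3 and 0.689, 0.534 and 1.25 FPKM in WT 1 to WT 3. Its annotated exons share 18.0% of their bases with a transcript on the other strand. Htr6 and Htr2b were low at 0.830 and 0.293 FPKM, Htr1d was near 0 and Htr3b, the partner subunit of Htr3a, was listed at 0 in all 6 libraries. The Htr2b value is uncertain, since 11.8% of its annotated exon bases lie opposite exons of Psmd1. That gene averaged 51.3 FPKM in TonEBP+/- and 52.0 FPKM in wild type.

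Noradrenaline receptors were led by the Gq-coupled Adra1d, at 12.0, 11.1 and 11.4 FPKM in HET 1 to HET 3, against 13.2, 9.32 and 12.3 FPKM in WT 1 to WT 3. The Gi/o-coupled Adra2c averaged 6.66 ± 0.474 FPKM in TonEBP+/- and 6.19 ± 0.527 FPKM in wild type, and Adrb1, the Gs-coupled beta receptor linked to hippocampal memory, 5.10 ± 0.452 FPKM in TonEBP+/- and 5.30 ± 0.379 FPKM in wild type (SD, n = 3 each). Adra1a and Adra2a were detected at 2.81 and 1.42 FPKM over the 6 libraries, and Adra2b and Adrb3 were low at 0.798 and 0.203 FPKM. Of the dopamine receptors, the Gs-coupled Drd5 and Drd1 were detected and the Gi/o-coupled Drd2, Drd3 and Drd4 were not. Drd5 was at 4.01, 3.94 and 4.52 FPKM in HET 1 to HET 3, against 4.23, 3.25 and 4.28 FPKM in WT 1 to WT 3. It made up 65.0% of the summed dopamine receptor level, although 48.6% of its annotated exon bases lie opposite an antisense transcript. Drd1 averaged 1.48 ± 0.351 FPKM in TonEBP+/- and 1.48 ± 0.174 FPKM in wild type (SD, n = 3 each). Drd2 was at 0.0748 FPKM in HET 2 and between 0.381 and 0.731 FPKM in the other 5 libraries.

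Histamine and opioid receptors each had a single dominant gene. Hrh3, the Gi/o-coupled autoreceptor and presynaptic receptor for histamine, was at 10.3, 10.4 and 9.72 FPKM in HET 1 to HET 3, against 11.7, 10.6 and 9.83 FPKM in WT 1 to WT 3, and made up 75.8% of the histamine class. Hrh2 and Hrh1 averaged 1.84 and 1.48 FPKM over the 6 libraries, and Hrh4 was listed at 0 in all 6. Oprl1, the nociceptin receptor, was at 13.9, 17 and 14.1 FPKM in TonEBP+/- libraries, against 15.4, 13.5 and 15.1 FPKM in wild-type libraries, and made up 75.7% of the opioid class. The delta receptor gene Oprd1 averaged 2.41 FPKM over the 6 libraries, the mu receptor gene Oprm1 1.90 FPKM and the kappa receptor gene Oprk1 0.441 FPKM. The genotypes overlapped in every one of these histamine and opioid receptor genes.

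When the 35 detected genes were put in order of their mean level, the ranges over the 6 libraries overlapped in 32 of 34 neighbouring pairs. The breaks lay between Cnr1 (lowest library 30.3 FPKM) and Chrm1 (highest library 18.4 FPKM), and between Chrnb2 (lowest 8.34 FPKM) and Adra2c (highest 6.98 FPKM). Overlap of these ranges does not show that the other neighbours were equal: Chrna7, for example, lay above Adra1d within each of the 6 libraries. In all, 9 genes lay above 10 FPKM, and the median of the 35 was 4.04 FPKM, against 9.91 FPKM over all 13122 genes tested.

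The comparison of TonEBP+/- with wild type asked which receptor genes differ with 1 disrupted TonEBP allele. By limma, 0 of the 35 detected receptor genes passed an adjusted p of 0.05, as did 0 of all 13122 genes (0%). At an unadjusted p under 0.05 there were 2 receptor genes, 5.71% of the 35, against 3.69% of all genes tested. The 3 TonEBP+/- libraries lay below the 3 wild-type libraries in 2 receptor genes, Chrm2 and Adra1b, 5.71% of the 35 against 4.39% of all genes tested. They lay above them in 1, Chrna5, where the background over all genes was 4.13%. These shares are close to the background. The log2 difference was positive in 20 receptor genes and negative in 15, with a median of 0.01 against 0.00 over all genes, and the split turned to 16 positive and 19 negative under quantile or median scaling. A median absolute log2 difference of 0.07 was found both in the receptor genes and in all genes.

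**Figure D2:**
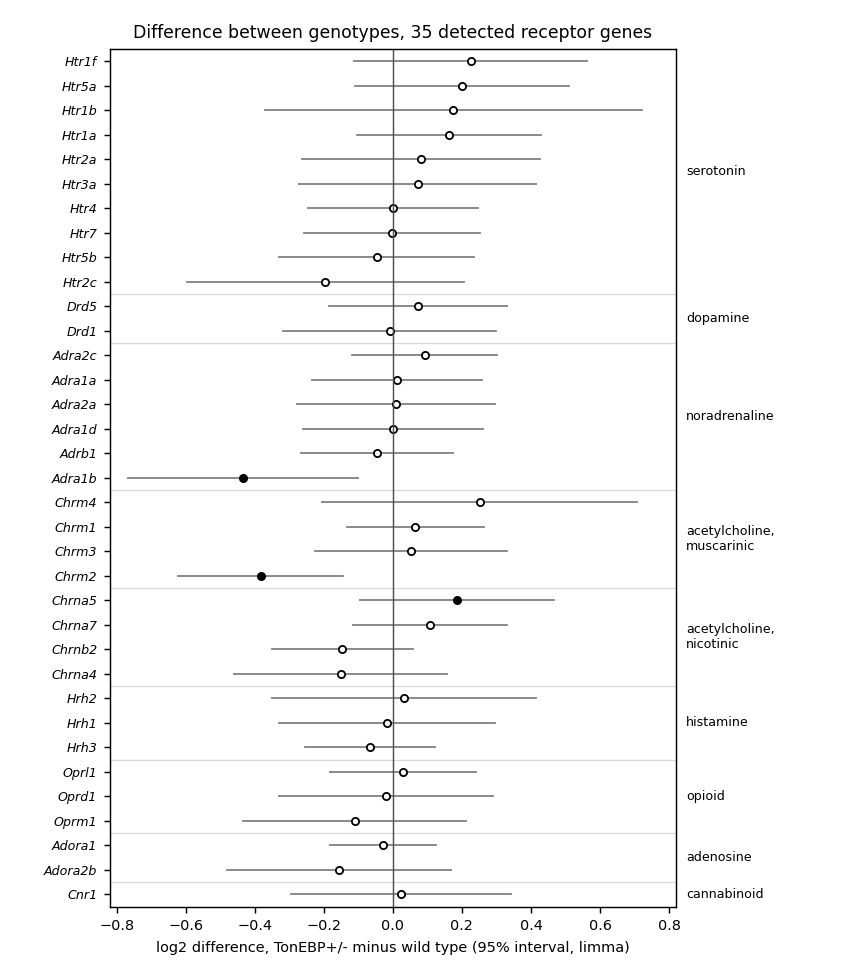
Log2 difference (TonEBP+/- minus wild type) with its 95% interval from limma for the 35 detected receptor genes, grouped by transmitter; filled points mark genes whose genotypes do not overlap. The intervals of Chrm2 and Adra1b lie below 0 and those of the other 33 genes include 0.

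Chrm2 (chromosome 6, 36387991 to 36528638), the Gi/o-coupled muscarinic receptor that serves as an autoreceptor on cholinergic terminals and is found on hippocampal interneurons, had the smallest p. It was at 2.62, 2.72 and 2.72 FPKM in HET 1 to HET 3, against 4.30, 3.41 and 3.76 FPKM in WT 1 to WT 3. All 3 TonEBP+/- libraries were thus low and close to each other. The means were 2.69 ± 0.0581 FPKM in TonEBP+/- and 3.82 ± 0.447 FPKM in wild type (SD, n = 3 each), a ratio of 0.703. The log2 difference was -0.38 (SE 0.107, 95% interval -0.62 to -0.15), which did not pass (limma adjusted p = 1.00). A two-sided exact permutation of its values had p = 0.1, and groups of 3 libraries cannot give a smaller value. Every gene whose genotypes do not overlap has this p, so it adds nothing to the lack of overlap. In bulk RNA such as this, fewer cells of a type and less RNA per cell cannot be told apart. Among 13 interneuron markers, 6 were higher and 7 lower in TonEBP+/-, 0 passed, and their summed level was 605, 612 and 576 FPKM in HET 1 to HET 3, against 608, 658 and 629 FPKM in WT 1 to WT 3. Cck made up much of these sums, with 355, 309 and 300 FPKM in HET 1 to HET 3, against 304, 341 and 312 FPKM in WT 1 to WT 3. Gad1 (log2 difference -0.29, SE 0.197) and Gad2 (-0.22, SE 0.111) were among the 7 lower markers and overlapped between genotypes. Pvalb, the marker of fast-spiking interneurons, did not overlap between genotypes, with 73.2, 74.1 and 72.6 FPKM in HET 1 to HET 3, against 82.4, 128 and 94.4 FPKM in WT 1 to WT 3. Lamp5, a marker of neurogliaform interneurons, separated the genotypes in the other direction, with 14.0, 16.6 and 14.0 FPKM in HET 1 to HET 3, against 11.6, 12.5 and 12.6 FPKM in WT 1 to WT 3. The part of interneurons in the Chrm2 values was not tested.

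Adra1b (chromosome 11, 43774605 to 43901250), a Gq-coupled noradrenaline receptor known to be strongly expressed in thalamus, was the other gene with lower values. It was at 3.24, 2.06 and 1.87 FPKM in HET 1 to HET 3, against 3.35, 3.49 and 3.70 FPKM in WT 1 to WT 3. HET 1 lay just under the lowest wild-type library, and HET 2 and HET 3 lay far below. The log2 difference was -0.43 (SE 0.149, 95% interval -0.77 to -0.10, limma adjusted p = 1.00), with a ratio of means of 0.681. Most thalamus and habenula markers followed the same libraries. The list was chosen with it already known that thalamus genes are low in HET 2 and HET 3. The match with Adra1b is therefore not independent of these data. Of 18 markers tested, 15 were lower in TonEBP+/-, 3 were higher and 0 passed, with a median log2 difference of -0.41. The 3 higher markers were Tac2, Nwd2 and Necab1. Tac2 had the smallest p of these markers and did not overlap between genotypes (log2 difference 0.35, SE 0.115). Slc17a6 was lower without overlap (-0.52, SE 0.193). Nwd2 and Necab1 were highest in HET 2, at 5.91 and 37.9 FPKM. The thalamus and habenula markers as a set deviated from the 6-library mean by a median of 0.26, -0.41 and -0.51 in HET 1 to HET 3, against 0.17, 0.25 and 0.16 in WT 1 to WT 3. Leaving out HET 2 and HET 3 was an alternative chosen after seeing the data, with only HET 1 set against wild type. It gave a log2 difference of -0.09 for Adra1b and of -0.41 for Chrm2. The Adra1b value had to shrink, since HET 2 and HET 3 hold its lowest levels, so the 2 values decide nothing about thalamic RNA. Without HET 1 alone the value of Adra1b was -0.61 (limma adjusted p = 0.230). This value had to grow in size, since HET 1 holds the highest TonEBP+/- level of Adra1b, so it decides nothing either. The part of thalamic RNA in the Adra1b values was not tested further.

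Nicotinic subunits pointed in both directions without any passing. Chrna5 was at 2.03, 2.29 and 1.94 FPKM in HET 1 to HET 3, against 1.38, 1.86 and 1.92 FPKM in WT 1 to WT 3, so that the genotypes were separated by a narrow gap between HET 3 and WT 3. The log2 difference was 0.19 (SE 0.126, limma adjusted p = 1.00), and it was 0.09 without WT 1. Chrnb2 was at 8.72, 9.07 and 8.34 FPKM in HET 1 to HET 3, against 9.75, 8.76 and 10.8 FPKM in WT 1 to WT 3, with a log2 difference of -0.15 (SE 0.0911, adjusted p = 1.00 in limma) that was -0.08 without WT 3. HET 2 overlapped with WT 2 in this gene, and 16.3% of its annotated exon bases lie opposite exons of Adar. Chrna4, its partner subunit, was at 6.47, 4.63 and 4.58 FPKM in HET 1 to HET 3, against 6.10, 4.97 and 6.58 FPKM in WT 1 to WT 3. As with Adra1b, HET 2 and HET 3 were the lowest libraries, but here HET 1 was within the wild-type range.

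**Figure D3:**
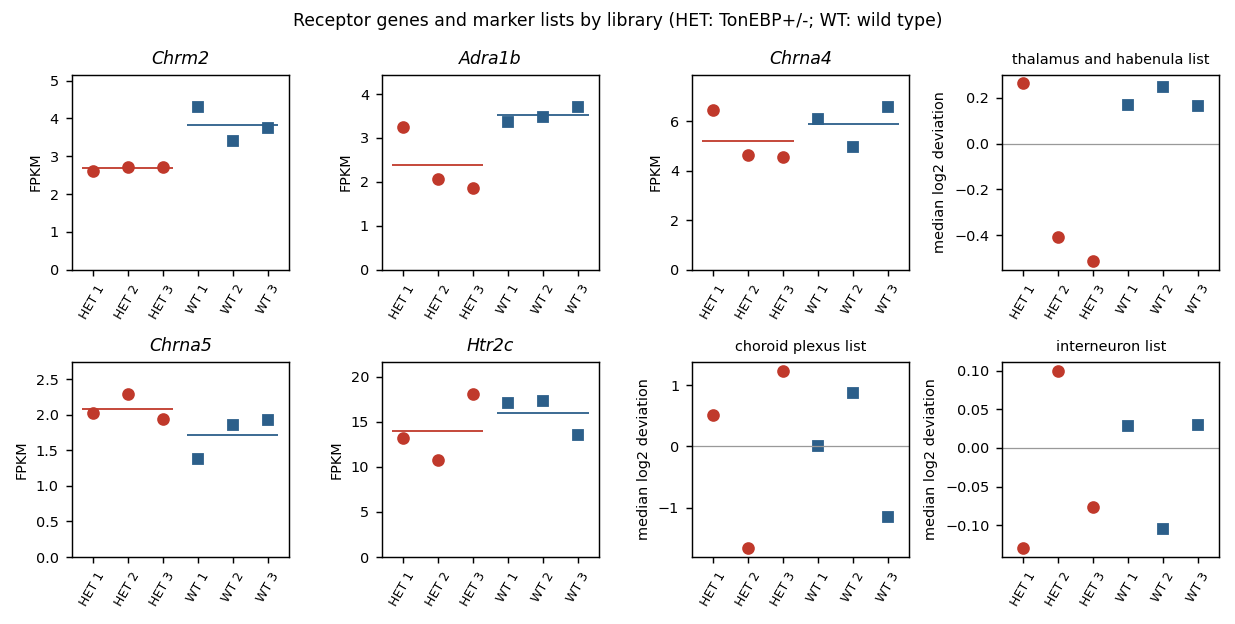
Levels of 5 receptor genes (FPKM, horizontal lines are group means) and median log2 deviation of 3 marker lists from the 6-library mean, by library, with TonEBP+/- (circles) left of wild type (squares). Adra1b and Chrna4 are low in HET 2 and HET 3, as is the thalamus and habenula list, Chrm2 is low in all 3 TonEBP+/- libraries, and Htr2c is lowest in HET 2, as is the choroid plexus list.

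Among serotonin receptors, 7 of the 10 detected genes were higher and 3 lower in TonEBP+/-, with a median log2 difference of 0.08, and 0 passed. Htr1f, a Gi/o-coupled receptor, was at 1.70, 1.23 and 1.70 FPKM in HET 1 to HET 3, against 1.59, 0.978 and 0.997 FPKM in WT 1 to WT 3, and HET 2 lay within the wild-type range. Its log2 difference was 0.22 (SE 0.151, limma adjusted p = 1.00), and it was 0.35 without WT 1. Htr5a, which also couples to Gi/o, was at 2.04, 3.12 and 2.68 FPKM in HET 1 to HET 3, against 2.30, 1.81 and 2.28 FPKM in WT 1 to WT 3, where HET 1 overlapped the wild type. Its log2 difference of 0.20 (SE 0.138, adjusted p = 1.00 in limma) turned to -0.04 without HET 2 and HET 3. It was 0.32 without HET 1, 0.10 without HET 2 and 0.13 without WT 2. Of the remaining classes, 4 noradrenaline receptors were higher and 2 lower, 3 muscarinic genes were higher and 1 lower, and both adenosine genes were lower. Opioid and histamine genes each had 1 higher and 2 lower, dopamine genes 1 higher and 1 lower, and the 1 detected cannabinoid gene was higher. In each class 0 passed. By coupling, the median log2 difference was 0.02 over 15 Gi/o-coupled genes, 0.01 over 8 Gq-coupled genes, -0.00 over 7 Gs-coupled genes and 0.07 over 5 channel subunits.

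The precision differed between genes. The SE of a log2 difference ran from 0.0688 (Adora1) to 0.242 (Htr1b), with a median of 0.126. For Adora1 the 95% interval was -0.18 to 0.13, for Chrm1 -0.13 to 0.26 and for Cnr1 -0.30 to 0.34. For Chrm4 the interval was -0.20 to 0.71, so that differences of up to 0.71 lie within it. None of the 28 genes below detection separated the genotypes, and their smallest two-sided exact permutation p was 0.2.

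Some libraries held most receptor genes on the same side of their mean, a description that was not tested. In HET 1, 26 of the 35 genes lay below their 6-library mean (25.7% above it, against 48.8% of all tested genes), and in WT 2 likewise 26 of 35 lay below (25.7% above, against 48.3% of all tested genes). In HET 2, 22 of 35 lay above (62.9%, against 49.1% of all tested genes), and in HET 3 18 of 35 (51.4%, against 53.6%). In WT 1, 24 of 35 lay above (68.6%, against 48.7% of all tested genes), and in WT 3 21 of 35 (60%, against 51.7%). The median deviation over the receptor genes was -0.10, 0.12 and 0.02 in HET 1 to HET 3, against 0.06, -0.06 and 0.03 in WT 1 to WT 3, while that of all genes lay within 0.01 of 0 in each library. Interneuron markers had median deviations of -0.13, 0.10 and -0.08 in HET 1 to HET 3, against 0.03, -0.10 and 0.03 in WT 1 to WT 3. They were not alone in this. Endothelial and mural markers had -0.10, 0.28 and -0.14, against -0.03, -0.17 and 0.12, in the same order of libraries. Astrocyte markers went the other way in HET 1 and HET 2, with 0.14 and -0.04. The part of these cell types was not tested. The genes furthest above their mean in HET 2 included Htr1b, Chrm4, Hrh2 and Htr1a, which were named after their values were seen.

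**Figure D4:**
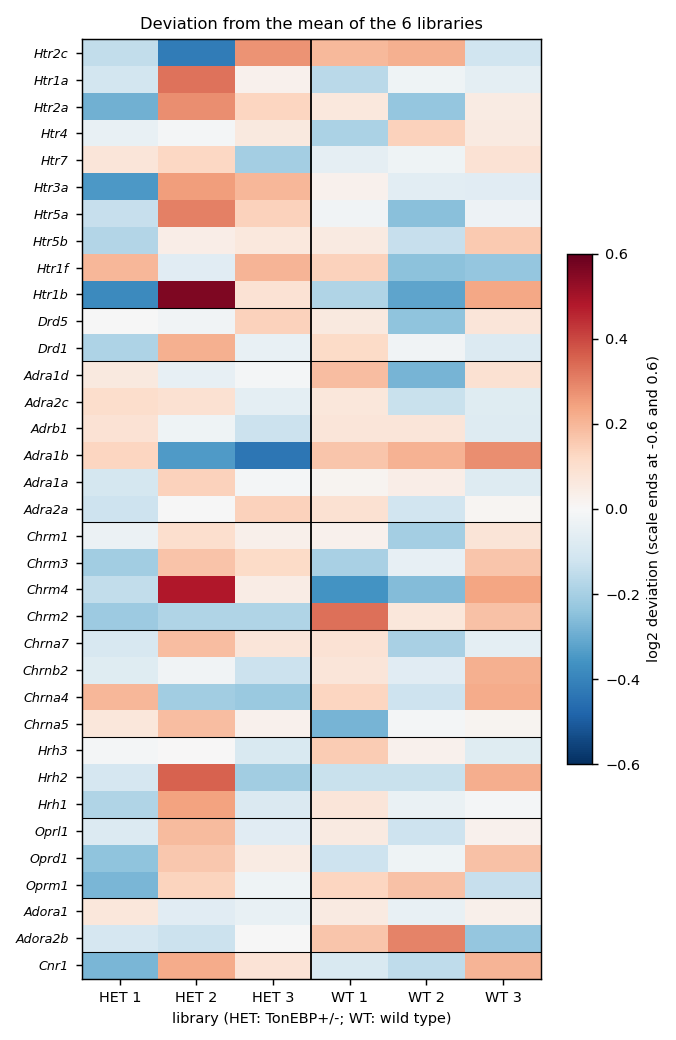
Log2 deviation of each detected receptor gene (rows, grouped by transmitter and ordered by level) from its mean over the 6 libraries (columns, TonEBP+/- left of wild type). HET 1 and WT 2 are mostly below the mean (26 of 35 genes each) and HET 2 is mostly above it (22 of 35).

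Genes that make, move or break down the transmitters gave the context of these receptors. Chat, Slc5a7, Dbh, Slc6a4 and Tph2, which mark cholinergic, noradrenergic or serotonergic neurons, did not reach the filter for detection, at unequal levels. Chat, which makes acetylcholine, was at 0 to 0.0429 FPKM in TonEBP+/- and at 0 to 0.0353 FPKM in wild type, and the serotonin transporter gene Slc6a4 at 0 to 0.0277 FPKM in TonEBP+/- and under 0.001 FPKM in wild type. Dbh, which makes noradrenaline, was at 0.0487 to 0.161 FPKM in TonEBP+/- and at up to 0.0493 FPKM in wild type. Higher than these were Slc5a7, the choline transporter of cholinergic neurons, at 0.212 to 0.270 FPKM in TonEBP+/- and 0.166 to 0.318 FPKM in wild type, and Tph2, which makes serotonin in neurons, at 0.277 to 0.522 FPKM in TonEBP+/- and 0.343 to 0.508 FPKM in wild type. Of 20 monoamine genes 9 were tested, with 4 higher, 5 lower, 0 passed and a median log2 difference of -0.02. The smallest p values in that list belonged to Slc18a2, the vesicular monoamine transporter (-0.17, SE 0.126), and to the oxidase gene Maob (-0.15, SE 0.114). Among 7 acetylcholine genes only the 2 cholinesterases were tested, and they differed in direction. Ache, which degrades acetylcholine, was at 8.18, 7.56 and 7.0 FPKM in HET 1 to HET 3, against 9.43, 9.0 and 9.66 FPKM in WT 1 to WT 3, a log2 difference of -0.27 (SE 0.0845, limma adjusted p = 1.00). Bche was at 3.18, 3.02 and 2.98 FPKM in HET 1 to HET 3, against 2.22, 2.70 and 2.68 FPKM in WT 1 to WT 3, a log2 difference of 0.20 (SE 0.107, adjusted p = 1.00 in limma). Neither gene overlapped between genotypes and neither passed; over all genes tested, 4.39% lay lower and 4.13% higher without overlap.

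Local modulators and nicotinic helper proteins showed 0 genes past the threshold. Opioid peptide genes were higher in 1 and lower in 3 of 4, led by the enkephalin gene Penk (-0.14, SE 0.103) and Pomc (-0.22, SE 0.187). Adenosine metabolism genes were higher in 5 and lower in 3 of 8, and the ecto-nucleotidase gene Entpd2 was at 5.73, 5.00 and 5.43 FPKM in HET 1 to HET 3, against 4.35, 4.26 and 4.50 FPKM in WT 1 to WT 3 (log2 difference 0.25, SE 0.0914), with Alpl next (0.25, SE 0.140). Endocannabinoid genes were higher in 7 and lower in 4 of 11, with Abhd6 (0.11, SE 0.0633) and Naaa (0.11, SE 0.0738), hydrolases of endocannabinoids and related amides, at the smallest p. Nicotinic chaperones and Ly6-family modulators were higher in 4 and lower in 4 of 8, with Ly6e (0.19, SE 0.0793) and the chaperone Ric3 (-0.13, SE 0.0739) at the smallest p.

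Downstream of the receptors, 24 G protein subunit genes were tested, of which 10 were higher, 14 lower and 0 passed. Gnal, the Gs-like alpha subunit of striatum and olfactory neurons, had a log2 difference of -0.24 (SE 0.0891) and Gnaz, of the Gi/o class, of 0.13 (SE 0.0804). Effectors were higher in 15 and lower in 16 of 31. Plcb4, a phospholipase C gene rich in thalamus, was at 31.9, 19.7 and 21.2 FPKM in HET 1 to HET 3, against 32.6, 37.1 and 34.5 FPKM in WT 1 to WT 3, again low in HET 2 and HET 3, and the phosphodiesterase gene Pde2a had a log2 difference of 0.22 (SE 0.0813). Genes that end receptor signals were higher in 13 and lower in 10 of 23. The 2 with the smallest p encode RGS proteins, which shut off G proteins: Rgs6 was at 5.10, 5.46 and 5.18 FPKM in HET 1 to HET 3, against 7.48, 6.56 and 6.64 FPKM in WT 1 to WT 3 (log2 difference -0.34, SE 0.0889), and Rgs4 at 78.3, 72.4 and 65.5 FPKM in HET 1 to HET 3, against 80.9, 91.4 and 89.0 FPKM in WT 1 to WT 3 (-0.27, SE 0.0830). Neither overlapped between genotypes and neither passed. Of the 23 genes, 3 lay lower and 2 higher without overlap, beside 4.39% and 4.13% of all genes tested. Of 7 tested genes known as TonEBP targets elsewhere in the body, 3 were higher, 4 lower and 0 passed, with Hspa4l (-0.14, SE 0.0665) and S100a4 (-0.21, SE 0.103) at the smallest p. Across the marker lists of the other cell types and regions 0 genes passed, and median log2 differences ran from -0.09 (dentate granule) to 0.28 (meningeal fibroblast), with 0.04 for CA1 and -0.07 for CA2 and CA3. All 10 tested meningeal markers had a higher mean in TonEBP+/-, with median deviations of -0.18, 0.37 and 0.16 in HET 1 to HET 3, against -0.15, -0.02 and -0.27 in WT 1 to WT 3, so that HET 2 and HET 3 were high and HET 1 was within the wild-type range.

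TonEBP binds DNA at an element whose core is TGGAAA, and this core was looked for in the 250 bases before each annotated start, on both strands. RefSeq promoter windows on GRCm38.p6 were matched by symbol for 48 of the 63 receptor genes, giving 65 windows. The core was present in 8 receptor windows, 12.3%, against 18.6% of all 32851 windows of the same length. A match is a description and not a site. Receptor windows had a median GC content of 59.2%, against 52.4% over all windows, and 9 CpG dinucleotides, against 6 over all. The search covered only the core and not the rest of the element, with capitals marking TGGAAA or its reverse complement TTTCCA. Detected genes with a match were Adra2a, Adra2c and Htr1f, shown because their windows hold these letters. Chrm2, the receptor gene with the smallest p, is shown beside them, and these letters are not in its window. The windows are Chrm2 chr6:36387834-36388083 (plus strand), Adra2a chr19:54045009-54045258 (plus strand), Adra2c chr5:35278316-35278565 (plus strand) and Htr1f chr16:65105785-65106034 (minus strand), each written 5′ to 3′ along its gene.
Chrm2: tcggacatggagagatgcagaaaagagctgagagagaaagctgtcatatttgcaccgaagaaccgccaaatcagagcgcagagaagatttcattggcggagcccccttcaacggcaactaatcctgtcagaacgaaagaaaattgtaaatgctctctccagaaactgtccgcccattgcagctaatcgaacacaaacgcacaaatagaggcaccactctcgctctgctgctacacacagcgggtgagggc
Adra2a: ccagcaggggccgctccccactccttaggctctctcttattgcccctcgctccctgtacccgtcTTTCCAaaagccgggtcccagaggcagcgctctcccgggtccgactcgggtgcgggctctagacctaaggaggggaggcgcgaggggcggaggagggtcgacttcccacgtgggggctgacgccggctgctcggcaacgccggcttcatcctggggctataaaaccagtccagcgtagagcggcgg
Adra2c: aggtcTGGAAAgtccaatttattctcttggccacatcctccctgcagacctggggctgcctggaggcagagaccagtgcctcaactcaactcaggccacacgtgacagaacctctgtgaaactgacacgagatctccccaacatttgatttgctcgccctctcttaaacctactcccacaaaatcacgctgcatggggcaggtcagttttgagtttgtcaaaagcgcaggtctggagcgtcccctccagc
Htr1f: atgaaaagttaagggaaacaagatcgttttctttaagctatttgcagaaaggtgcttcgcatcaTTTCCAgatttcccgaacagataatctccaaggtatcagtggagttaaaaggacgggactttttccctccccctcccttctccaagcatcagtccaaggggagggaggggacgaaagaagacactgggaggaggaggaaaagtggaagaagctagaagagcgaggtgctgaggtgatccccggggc
The log2 differences of the 3 genes with a match were 0.01 (SE 0.128) for Adra2a, 0.09 (SE 0.0942) for Adra2c and 0.22 (SE 0.151) for Htr1f, and 0 of them passed.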

How the data were processed

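Hippocampal total RNA (Trizol) went into directional NEBNext libraries, per the labels' protocols. The submitters' processing notes name TopHat and mm10; which program computed abundances, on which annotation, and whether counting used strand: not given in the sources used here. The authors deposited 1 table of log2 values per library, read here as log2(FPKM + 1) from their behaviour; in 4 of them many values lie above 0 but under 0.001 FPKM.

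The 13122 genes that reached 1 FPKM in at least 3 libraries entered a limma 3.58.1 fit (R 4.3.3; genotype only, trend and robust options, Benjamini-Hochberg over all 13122, threshold 0.05). Differences of low genes are understated on this scale. Single values were compared by exact permutation. The code was tested on simulated data. Alternatives were quantile and median scaling, other filters, a pseudocount of 0.1, limma without its robust option, a replicate block, an adjusted p of 0.1, and libraries left out. The receptor genes and the 24 gene lists were chosen with earlier results of these data known, including that thalamus genes are low in HET 2 and HET 3. Named by rule were the highest gene of each class, detected genes without overlap, the 6 with the smallest p, and the 2 with the smallest p per pathway list. The values of 1 receptor gene are not reported here, though it stays in counts and sums. Positions are from RefSeq on GRCm38.p6, the assembly mm10 names.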

Additional observations from a re-analysis of the deposited data

How the results depend on the processing

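The count of 0 receptor genes past the threshold held under every alternative run, and the smallest adjusted p of any receptor gene over them was 0.230 (Adra1b without HET 1). Over all genes the count of 0 held under other scalings, filters, pseudocount, robust setting and threshold. It ranged from 0 to 8 when libraries were left out: 8 without HET 1, 1 without HET 3, 1 without WT 1 and 1 without WT 2. It was 1 without HET 2 and HET 3, an alternative chosen after seeing the data, in which the lone HET 1 is assumed to vary like the wild type. Under that alternative the median log2 difference over the receptor genes was -0.084 in place of 0.01 (9 higher and 26 lower). There 16 of 35 genes kept their direction, and Htr5a turned to -0.038, with 0.32 as its highest value (without HET 1). The values of that alternative describe HET 1 alone, in which 26 of the 35 genes lay below their 6-library mean. Why HET 1 lay low was not tested. With single libraries left out the median ran from -0.04 to 0.074, and 27 to 31 of 35 genes kept their direction. Of 85 alternative values of the 6 genes named for p or lack of overlap, 84 had the direction of the reported fit and stayed on the same side of the threshold. The direction was largely fixed beforehand and is no support. Genes without overlap keep it when libraries are left out, and some settings leave the log2 difference unchanged. In the fit with the replicate number as a block, 0 receptor genes and 0 genes in all passed. The numbers share no stated litter or day, and deviations of same-numbered libraries correlated at -0.21, -0.25 and -0.16 over genes, so they were not treated as pairs. Depth limits most the receptor genes near 0, where the value of a library rests on a few fragments or none.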
